A study of Mus musculus with 48 samples.

Results

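The comparison described here is the maturation of the prefrontal cortex of wild-type (WT) male mice between postnatal day 5 (P5) and 6 weeks of age (6W), measured by RNA sequencing in 4 animals per age. Its members are the 8 prefrontal libraries labelled WT at these ages, of 48 libraries in the study, and all genes with enough reads were compared. The study also sequenced hippocampus, adults of 4 to 6 months (6M) and knockout (KO) males without Aag, a glycosylase of DNA repair encoded by Mpg, of which the WT hippocampus and the KO prefrontal cortex at P5 and 6W, 4 libraries in each group, are used for 2 further tests. The WT animals carry no allele or treatment named in the labels, and the strain is not given in the sources used here. The labels count 4 animals per group, and p-values measure only the spread between animals within groups. Each fit estimated this spread over all of its groups, including groups that were not compared. Each library is bulk tissue, so a transcript that falls can reflect fewer cells of a type or less RNA per cell, and these cannot be told apart.

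In the rodent cortex the first postnatal week is a time when most excitatory neurons have reached their layer and are growing axons and dendrites, while glial progenitors still divide. Synapse formation, myelination by oligodendrocytes, the spread of astrocyte and microglia processes, and the maturation of fast-spiking inhibitory interneurons follow over the next weeks. By 6 weeks a mouse is a juvenile to young adult. Many protein families exchange an early member for a later one over this time, among them receptors, ion channels and tubulins.

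The 8 libraries held between 26754791 and 31484242 counts, and a floor of 3 counts corresponded to 0.0871 to 0.118 CPM (the usual depth-scaled count, here by effective library size). No pair of libraries of a group agreed within sampling noise. The 9 genes of forebrain cortex identity had a sum of 1391 to 2307 CPM at P5 and 1932 to 2214 at 6W, and 4 of them fell, 1 rose and 4 were not called. Among the latter was Tbr1, a transcription factor of deep-layer neurons, at 284, 411, 431 and 427 CPM at P5, lowest in replicate 1, and 469, 361, 439 and 398 CPM at 6W. The first principal component, with 74.2% of the variance, separated the ages, and the second, with 7.14%, set P5 replicate 1 apart from P5 replicate 3. Markers of neighbouring tissue varied between libraries. The summed level of 10 striatal genes was 483 CPM in P5 replicate 1 against 150.2 to 176 in the other P5 libraries, and 919.7 and 730.4 in 6W replicates 2 and 4 against 227 and 341 in the others. The sum of 8 olfactory bulb genes was 171 and 121 CPM in P5 replicates 2 and 4, and between 18.9 and 58.8 in the other 6 libraries. Mitochondrially encoded genes took 8.65 to 12% of the counts at P5 and 15.9 to 21.2% at 6W.

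Most genes tested differed between the ages. Of 18144 genes tested, 11034 (60.8%) differed between the ages at an adjusted p under 0.05 by edgeR's quasi-likelihood test, 5543 (30.6%) higher at 6W and 5491 (30.3%) lower. A gene that passed this test is said to have risen or fallen, with its log2 fold change of 6W over P5, and any other gene is described as not called. Means are given with the SD over the 4 libraries of an age (n = 4). The 4 values at one age did not overlap the 4 at the other for 10237 genes (56.4%). In 5104 of them (28.1%) the 6W values lay above and in 5133 (28.3%) below. A log2 change of at least 1 was passed by 2833 genes that rose (15.6%) and 2269 that fell (12.5%), and a log2 change of at least 3 by 375 and 275. The median log2 change over all tested genes was 0.0022. Scaling by library size alone shifted that median to -0.2 and the split to 4152 genes higher and 7090 lower. Without P5 replicates 2 and 4 (the libraries high in olfactory bulb genes) 9619 genes were called, and without the 3 libraries high in striatal genes 9277. The share of genes called was 64.7% among protein-coding genes, and long intergenic noncoding RNAs were more often higher (259 of 706) than lower (143).

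**Figure D1:**
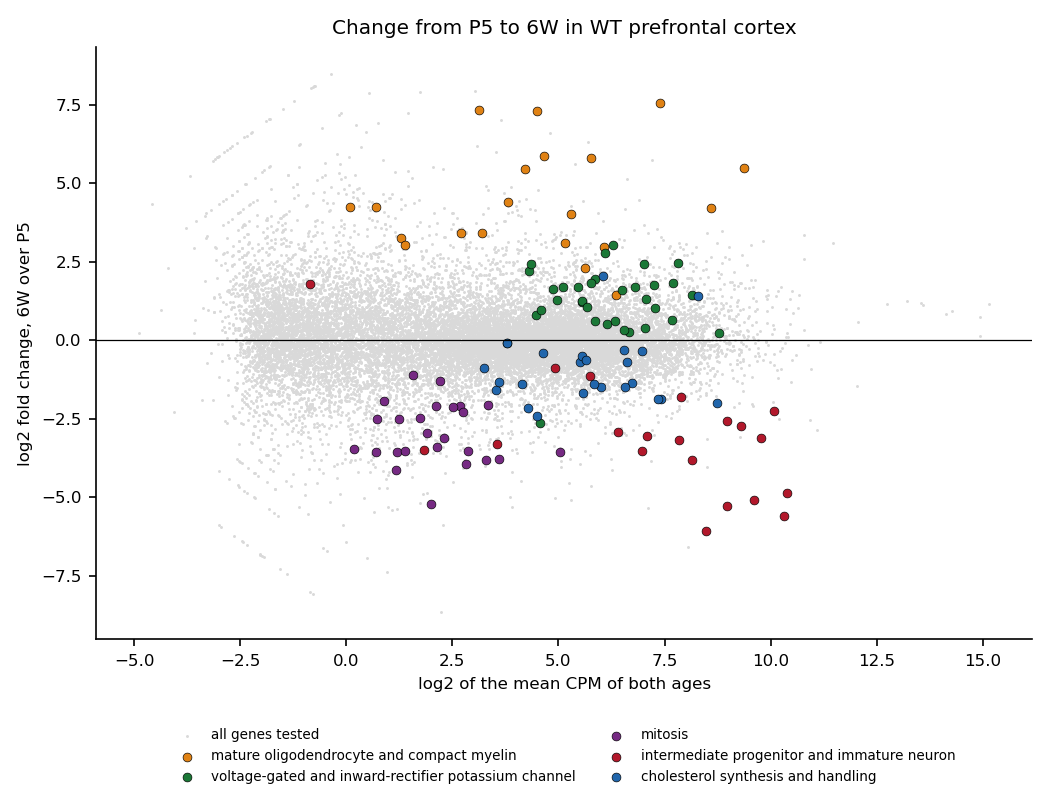
Log2 fold change from P5 to 6W (vertical axis) against the log2 of the mean CPM of both ages (horizontal axis) for the genes tested in WT prefrontal cortex, with 5 gene lists in colour. All 20 myelin genes lie above 0 and all 25 mitosis genes below it, while the cholesterol genes lie below 0 except Apoe and Cyp46a1.

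Genes were read in 56 lists, 24 of cell types and 32 of functions, whose 935 tested genes (of 953 found in the table) held 365 that rose, 346 that fell and 224 not called. The counts per list are read against the shares over all genes, 30.6% for a rise and 30.3% for a fall.

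**Figure D2:**
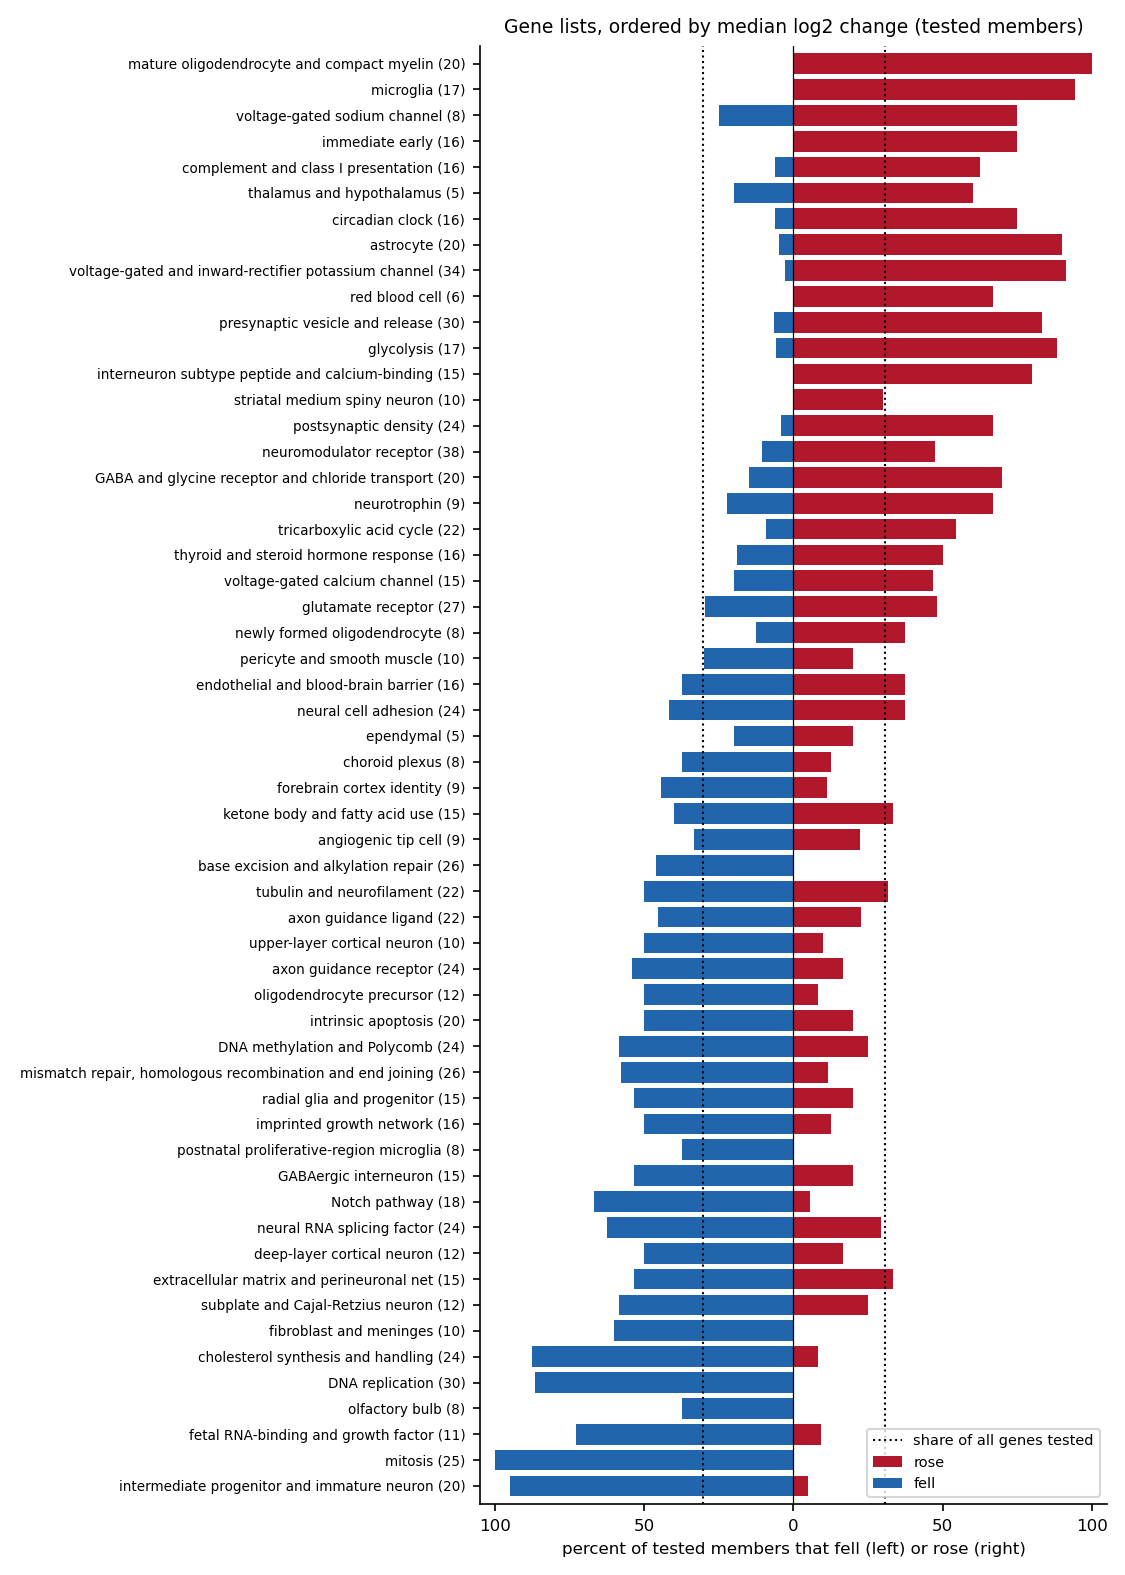
Percent of the tested members of each list that rose (right, red) or fell (left, blue) from P5 to 6W, with the number of tested members in brackets and the share over all tested genes as dotted lines. Lists are ordered by their median log2 change, from mature oligodendrocyte genes (all 20 rose) to immature neuron genes (19 of 20 fell).

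Genes of immature, migrating and axon-extending neurons were among the most abundant transcripts to fall. Dcx, doublecortin, a microtubule-binding protein of migrating neurons, was at 1992, 2680, 2956 and 2744 CPM at P5 and 99, 89.1, 83.4 and 85 CPM at 6W. Every P5 library lay far above every 6W library, and the log2 change was -4.86 (SE 0.26, edgeR adjusted p = 2.9e-14). Dpysl3 and Dpysl5, collapsin response mediator proteins that act on the growth cone cytoskeleton, went from 2516 ± 305 CPM at P5 to 51.5 ± 7.37 at 6W and from 978 ± 93.9 CPM at P5 to 25 ± 3.16 at 6W. Cd24a, a surface glycoprotein of young neurons, was at 456, 684, 939 and 709 CPM at P5 and 13.3, 11.6, 8.2 and 8 CPM at 6W. All 4 libraries at P5 stood far above all 4 at 6W, with P5 replicate 1 the lowest of its age, and the log2 change was -6.09 (SE 0.32). Sox11 and Sox4, transcription factors of newborn neurons, changed by -3.53 and -2.93, Gap43, a growth cone protein, by -2.58, and Stmn2, a tubulin-sequestering protein of growing axons, by -2.24. In the list of intermediate progenitor and immature neuron genes 19 of 20 fell, with a median log2 change of -3.15, and their summed level was 13418 to 18236 CPM at P5 and 1293 to 1542 at 6W. The exception, Neurog2, rose from 0.246 to 0.853 CPM. Eomes, a marker of intermediate progenitors that is also on the olfactory bulb list, changed by -3.5. Its P5 values of 1.95, 13.6, 0.0747 and 10.6 CPM were highest in the 2 libraries with high olfactory bulb genes. The call was lost without P5 replicate 2 or 4 or 6W replicate 2, 3 or 4 (edgeR adjusted p from 0.072 to 0.103). Without both P5 replicates 2 and 4 the log2 change was -0.85 and Eomes was not called (edgeR adjusted p = 0.712). The part of olfactory bulb tissue in the change was not tested.

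Among genes whose mean log2 CPM reached 5, the largest fall was that of Trim67, a brain-enriched ubiquitin ligase of the tripartite motif family (chr8:124793092-124834713, plus strand, GRCm38), at 472, 502, 617 and 526 CPM at P5 and 5.03, 5.71, 5.64 and 5.78 CPM at 6W. The 6W libraries lay within a narrow band far below those at P5, and the log2 change was -6.58 (SE 0.19). St8sia2, the enzyme that adds polysialic acid to the adhesion molecule Ncam1 in the young brain, went from 269 ± 41.9 CPM at P5 to 6.7 ± 1.63 at 6W, and Ncam1 itself changed by -2.0. Rac3, a small GTPase of neurite growth, changed by -4.12, Cxadr, an adhesion protein, by -4.03, Marcksl1, an actin-binding protein, by -3.19, Nrep, a neuronal regeneration-related protein, by -3.8, and Ppp1r14c, a phosphatase inhibitor, by -3.28. Each of these was lower in all 4 libraries at 6W than in any at P5.

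The largest rises at a mean log2 CPM of 5 or more included the following genes. Fam107a, an actin-associated protein enriched in astrocytes, was at 10.7, 4.38, 2.95 and 3.22 CPM at P5 and 318, 270.3, 299 and 269 CPM at 6W. P5 replicate 1 was the highest of its age, and all 6W libraries lay far above it, and the log2 change was 5.76 (SE 0.33). Cntnap1, which builds the junction of axon and myelin beside the node of Ranvier, was at 12.1, 10.8, 7.69 and 10.6 CPM at P5 and 214, 229, 239.9 and 234 CPM at 6W, and Nrn1, neuritin, a membrane-anchored protein of activity-dependent neurite growth, went from 9.92 ± 2.11 CPM at P5 to 181 ± 22.3 at 6W. The 3′ end of Nrn1 overlaps that of Fars2 on the opposite strand. Camk2a, the alpha subunit of the synaptic calcium/calmodulin kinase, was at 295, 307, 357 and 298 CPM at P5 and 2991, 3323, 3419 and 3150 CPM at 6W. All 4 values at 6W stood well above all 4 at P5. Further genes in this group were Nptx1, a pentraxin that clusters AMPA receptors (3.54), the sodium channel beta subunit Scn2b (3.5), Slc24a2, a potassium-dependent sodium/calcium exchanger (3.43), Ano3, an anoctamin membrane protein (3.66), Zfp365 (3.48), Car10 (3.41), Mt1, a metallothionein that binds zinc (3.31), and Pcdhgc5, a clustered protocadherin (3.8), each as a log2 change. The annotated span of Pcdhgc5 overlaps the other gamma protocadherins on the same strand, so its count is uncertain.

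**Figure D3:**
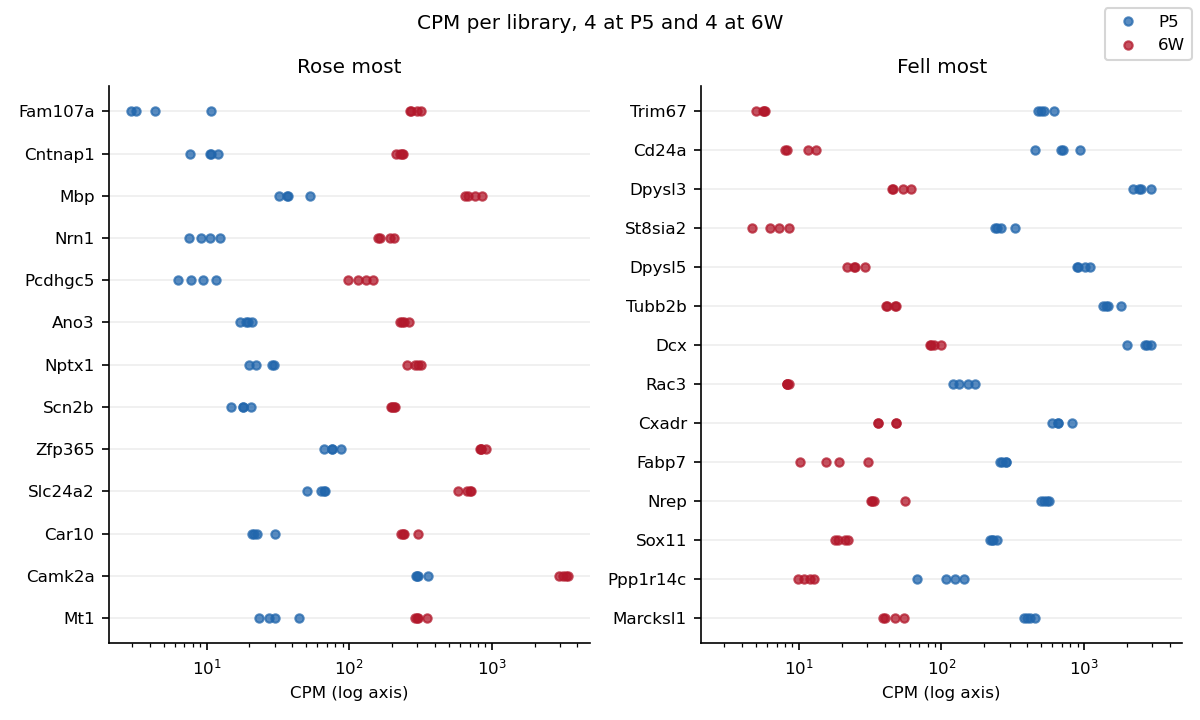
CPM (horizontal log axis) in each of the 4 P5 libraries (blue) and 4 6W libraries (red), for 27 of the 30 largest rises and falls among genes whose mean log2 CPM reached 5. The ages do not overlap for any of the 27 genes, which the choice of these genes required, and the 6W values of Trim67 all lie between 5.03 and 5.78 CPM.

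Cell division genes fell together. Cdk1, the kinase that drives entry into mitosis, was at 10.7, 7.75, 6.24 and 6.33 CPM at P5 and 0.0762, 0.118, 0.319 and 0.291 CPM at 6W. At 6W it was carried by 2, 3, 9 and 8 counts, against 355, 267, 167 and 210 at P5. Mki67, the nuclear proliferation marker, was at 77.6, 57.4, 43.5 and 62.1 CPM at P5 and 3.96, 5.2, 6.39 and 5.09 CPM at 6W. P5 replicate 1 was highest for both genes, P5 replicate 3 lowest, and all 6W libraries were lower. Top2a, a topoisomerase that untangles chromosomes, changed by -3.78, Aurkb, a kinase of chromosome segregation, by -4.13, Ube2c, a ubiquitin-conjugating enzyme of mitotic exit, by -3.54, and Cdc20, which activates the same degradation machinery, by -3.54. All 25 mitosis genes fell without overlap of the ages, with a median log2 change of -3.12 and the smallest change in Nuf2 (-1.1) and Cenpa (-1.3). Their sum was 186 to 340.2 CPM at P5 and 32.4 to 37.3 at 6W.

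Because the mitosis genes moved together, their promoters are shown. RefSeq windows from 250 bases before to 50 bases after the start (build GRCm38.p6) were found for 21 of the 25 genes, as 22 promoters. The letters TTTGAA, the core of the cell-cycle homology region through which many mitotic genes are held down outside division, occurred on either strand in 16 of the 22 (72.7%) and in 12.2% of 16021 promoters of tested genes. CCAAT boxes occurred in 18 (81.8%) and 37.2%, and both together in 15 (68.2%) and 4.89%. The 150 bases before the start, written 5′ to 3′ along the gene, are printed for 4 genes that hold both, with TTTGAA and CCAAT or their reverse complements in capitals.
Cdk1 (chr10:69352913-69353062, minus strand): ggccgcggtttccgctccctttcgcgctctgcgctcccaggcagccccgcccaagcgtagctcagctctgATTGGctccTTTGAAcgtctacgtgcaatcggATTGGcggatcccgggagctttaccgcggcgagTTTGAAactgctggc
Top2a (chr11:99024190-99024339, minus strand): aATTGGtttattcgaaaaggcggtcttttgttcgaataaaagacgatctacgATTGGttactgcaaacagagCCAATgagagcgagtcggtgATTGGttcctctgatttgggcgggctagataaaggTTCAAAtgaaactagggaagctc
Ube2c (chr2:164769779-164769928, plus strand): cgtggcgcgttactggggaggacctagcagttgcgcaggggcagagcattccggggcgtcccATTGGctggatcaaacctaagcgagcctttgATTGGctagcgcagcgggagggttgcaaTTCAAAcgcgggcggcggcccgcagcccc
Cdc20 (chr4:118437344-118437493, minus strand): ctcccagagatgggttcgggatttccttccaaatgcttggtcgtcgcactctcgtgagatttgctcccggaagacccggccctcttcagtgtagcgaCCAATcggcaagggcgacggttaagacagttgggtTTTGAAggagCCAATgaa
In the Cdk1 promoter the letters TTTGAA begin 71 and 15 bases before the start, in Top2a 23, in Ube2c 29 and in Cdc20 18 bases before it. A match of letters is a description and not a shown binding site.

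DNA replication genes fell to a smaller extent, 26 of 30 with a median log2 change of -1.36. The S-phase nucleotide enzymes led, Tk1, thymidine kinase, with -3.58 and Rrm2, a ribonucleotide reductase subunit, with -3.49, while Rrm1, the other subunit, changed by -1.14 and Pcna, the polymerase clamp, by -0.86. The replicative helicase subunits Mcm2 to Mcm7 all fell, between -0.81 (Mcm4) and -1.82 (Mcm6). Letters of the E2F type were counted in the same windows: TTTCCCGC was found in 6 of 24 promoters (25%) against 1.74%, and TTTGGCGC in 5 (20.8%) against 0.855%, on either strand.

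Base excision repair, the pathway of the enzyme the KO mice lack, had 12 of 26 members lower at 6W and none higher, with 14 not called and a median log2 change of -0.24. Mpg itself (chr11:32226505-32232700, plus strand, GRCm38, its exons overlapping those of Nprl3 on the opposite strand) was at 8.81, 7.52, 7.13 and 7.71 CPM at P5 and 5.6, 5.71, 5.68 and 4.76 CPM at 6W. It was lower in every 6W library than in any at P5, with a log2 change of -0.52 (SE 0.16). Without the 3 libraries high in striatal genes the Mpg change was -0.41 and was not called (edgeR adjusted p = 0.124). Neil3, a glycosylase of dividing cells, was carried by 95, 39, 41 and 51 counts at P5 and 2, 0, 4 and 0 at 6W. The replicative ligase Lig1 changed by -1.59, Lig3, which also serves mitochondria, by -1.2 and Tdg, a glycosylase acting in DNA demethylation, by -1.1. Polb, the repair polymerase, and Xrcc1, its scaffold, were at 35.4 and 37.6 CPM and at 8 and 8.08 CPM and were not called. Of 26 mismatch repair, homologous recombination and end joining genes 15 fell and 3 rose: Bard1, a ubiquitin ligase subunit of recombination, changed by -2.15, while Xrcc5, the Ku80 subunit of end joining, rose by 0.85 and Mlh3 by 0.7.

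Among progenitor genes the signals split. Tnc, tenascin-C, a matrix protein around radial glia, went from 104 ± 15.4 CPM at P5 to 4.13 ± 0.56 at 6W, and Fabp7, brain lipid-binding protein, from 272 ± 13.6 CPM at P5 to 18.9 ± 8.7 at 6W. Nes, nestin, and Vim, vimentin, the intermediate filaments of progenitors, changed by -1.91 and -1.4, whereas the stem cell transcription factors Sox2 (15.3 and 12.9 CPM) and Pax6 (12.5 and 10.4) were not called. With library size alone Sox2 was lower at 6W (-0.46, edgeR adjusted p = 0.0165). Hopx, which outer radial glia share with mature astrocytes, rose by a log2 change of 2.3, and Prom1, prominin, by 0.88. Of the 15 genes 8 fell and 3 rose, or 10 and 2 with library size alone, and without the 3 libraries high in striatal genes 4 fell.

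Mature oligodendrocyte genes had the highest median change of the 56 lists. Mbp, myelin basic protein, went from 40.0 ± 9.22 CPM at P5 to 736 ± 93.6 at 6W. The highest P5 library lay far below the lowest 6W library, and the log2 change was 4.2 (SE 0.18). Mobp, Mog and Opalin, proteins of the late myelin sheath, were at 1.78, 0.273 and 0.105 CPM at P5, the last of them near the floor, and at 337, 44.5 and 17.2 CPM at 6W. All 20 mature oligodendrocyte genes rose by a log2 change of at least 1, with a median of 4.22, and Tspan2 (1.45) and Cnp (2.31) moved least. Their sum was 135 to 194 CPM at P5 and 2629 to 3562 at 6W. The precursor list moved less: Pdgfra, the growth factor receptor of precursors, was at 78.2, 72.2, 70.8 and 71.7 CPM at P5 and 46.7, 44.7, 41.3 and 44.7 CPM at 6W and changed by -0.72, and Cspg4, which encodes NG2, was not called at 10.3 and 8.04 CPM. Cspg4 was lower at 6W with library size alone (-0.57, edgeR adjusted p = 0.042) and with only the samples compared (-0.38, edgeR adjusted p = 0.031). Of the 12 precursor genes 6 fell, led by Vcan, versican (-3.03), and Cacng4 (-2.37), which neurons can also express, and Neu4 alone rose (2.42). Among genes of newly formed oligodendrocytes, Enpp6 (2.25), Bcas1 (2.73) and Itpr2 (0.78) rose, Fyn, a kinase of early myelination, changed by -0.85, and Gpr17 was not called (31.8 and 37.5 CPM).

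Astrocyte genes rose in 18 of 20 cases, with a median log2 change of 1.44. Slc1a2, the glutamate transporter GLT-1, was at 616, 591, 596 and 554 CPM at P5 and 4874, 5138, 4808 and 5345 CPM at 6W. All 6W libraries lay far above those at P5, a log2 change of 3.1 (SE 0.11). S100b, a calcium-binding protein, and Ntsr2, a neurotensin receptor, changed by 4.29 and 4.06. Gjb6, the gap junction protein connexin 30, changed by 3.02, and Gja1, connexin 43, by 1.16. Kcnj10, the potassium channel Kir4.1, changed by 1.77, Glul, glutamine synthetase, by 1.86 and Aldoc, an astrocyte aldolase, by 2.34. The earlier glutamate transporter Slc1a3, GLAST, rose less (0.78), Aqp4, the water channel of the endfeet, was not called at 88.6 and 113 CPM, and Aldh1l1, a folate enzyme, fell (-0.39). The Aldh1l1 call was lost without P5 replicate 1 or 6W replicate 1, 3 or 4 (edgeR adjusted p from 0.0536 to 0.112), and the Aqp4 change passed without P5 replicate 4 or 6W replicate 3 (adjusted p from 0.031 to 0.0347).

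Microglial genes rose in 16 of 17 cases, with a median log2 change of 2.1 and a summed level of 119 to 176 CPM at P5 and 503 to 623 at 6W. P2ry12, a purinergic receptor of resting microglia, was at 11.2, 13.8, 10.6 and 14.8 CPM at P5 and 81, 81.7, 54.9 and 64.5 CPM at 6W, and the ages did not overlap. Tmem119, a marker of mature microglia, went from 1.49 ± 0.366 CPM at P5 to 12.7 ± 1.89 at 6W, Itgam, the CD11b integrin, changed by 3.32 and Ctss, a lysosomal protease, by 2.98. Of 8 tested genes of the microglia found in proliferative regions of the young brain, 3 fell and none rose: Fabp5 (-2.63), Lpl (-2.03) and Igf1 (-1.32), all of which other cells also express, while Spp1 was at 8.92 and 9.08 CPM and not called. The complement components C1qa, C1qb and C1qc rose by 2.33, 2.18 and 1.73, as did C4b (1.73), B2m, the light chain of class I molecules (1.51), and H2-K1 (1.7), whereas C3 fell (-1.8) from 1.17, 0.639, 0.971 and 1.18 CPM to 0.457, 0.276, 0.213 and 0.182 CPM. Without the 3 libraries high in striatal genes C3 was not called (edgeR adjusted p = 0.0532). H2-K1 has close relatives, so its count may hold or lose shared reads.

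Vessel genes moved both ways. Slco1a4, an organic anion transporter of the blood-brain barrier, went from 5.17 ± 1.05 CPM at P5 to 54.5 ± 9.35 at 6W, Abcb1a, the P-glycoprotein pump, rose by 1.86 and Slc2a1, the glucose carrier, by 1.24. Ly6c1 rose by 2.74 and Flt1, a VEGF receptor, by 1.36. Slc7a5, the large neutral amino acid carrier, fell from 130.3 ± 9.16 CPM at P5 to 46.1 ± 6.42 at 6W, and Kdr, the main VEGF receptor of growing vessels, Cdh5, endothelial cadherin, and Cldn5, the tight junction claudin, changed by -1.05, -0.9 and -0.74. In all, 6 of 16 genes rose and 6 fell. P5 replicate 4 stood apart, with an endothelial list sum of 554 CPM against 426 to 430.0 in the other P5 libraries and a mural list sum of 309 against 196 to 220.2. Without it Kdr, Cdh5 and Cldn5 still fell, by log2 changes of -0.89, -0.63 and -0.61. Of the tip cell genes, Cxcr4 (-3.44), Nid2 (-2.55) and Dll4 (-1.23) fell and Apln (1.37) and Unc5b (1.22) rose. Among mural cells, the pericyte potassium channel genes Abcc9 (-0.67) and Kcnj8 (-0.42) fell and the smooth muscle genes Myh11 (1.93) and Acta2 (0.91) rose. The Acta2 call was lost on leaving out P5 replicate 2 or 3 or any 6W library (edgeR adjusted p from 0.0623 to 0.162). It was also lost with library size alone (edgeR adjusted p = 0.159) and with DESeq2 (DESeq2 adjusted p = 0.0578). The Kcnj8 call was lost without P5 replicate 2 or 4 or 6W replicate 2 or 4 (edgeR adjusted p from 0.104 to 0.162). A block on replicate number lost it too (edgeR adjusted p = 0.0576), as did no filter on low counts, only the samples compared and DESeq2. Fibroblast collagens fell, Col3a1 (-2.72) and Col1a1 (-1.68), as did the growth factor gene Igf2 (-2.03, not called without P5 replicates 2 and 4, edgeR adjusted p = 0.0757), with a list sum of 245, 202, 124 and 446 CPM in the P5 libraries and 111 to 169 at 6W. The P5 values are widely spread, with P5 replicate 4 highest, and the part of attached meninges in these changes was not tested. Hemoglobin transcripts were higher at 6W, Hbb-bs from 112 ± 31.3 CPM at P5 to 259 ± 79.4 at 6W, and the alpha genes Hba-a1 and Hba-a2 are near-identical copies whose split is uncertain. The red blood cell list summed to 106 to 207 CPM at P5 and 310.5 to 533 at 6W.

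Genes of neighbouring tissue were read from 4 lists, and several calls turned on single libraries. Of 8 choroid plexus genes Kl rose (1.2) and Sostdc1 (-3.15) and Otx2 (-2.24) fell most, and of 5 ependymal genes Rarres2 rose (0.74) and Foxj1 fell (-1.48). The summed choroid plexus level was 14.1 to 27.9 CPM at P5 and 12.5 to 31.7 at 6W. Of the thalamic and hypothalamic genes Tnnt1 (2.62) and Rora (1.87) rose and Prkcd (-1.57) fell. Tnnt1 had 6, 12, 10 and 10 counts at P5 and 27, 68, 26 and 77 at 6W. Its 6W counts were highest in the libraries high in striatal genes, whose part was not tested. Of the olfactory bulb genes Trh fell (-1.89), from 1.71, 1.65, 1.27 and 1.11 CPM to 0.267, 0.748, 0.284 and 0.254 CPM. The Foxj1 call was lost without P5 replicate 1 or any 6W library (edgeR adjusted p from 0.0617 to 0.521), that of Rarres2 without P5 replicate 2 or 3 or 6W replicate 4 (from 0.076 to 0.111), and that of Otx2 without P5 replicate 1 (= 0.194). Foxj1 was also not called with a block on replicate number (edgeR adjusted p = 0.0933) or with DESeq2. Rarres2 was not called with library size alone (edgeR adjusted p = 0.154) or with only the samples compared (edgeR adjusted p = 0.0895).

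Several layer genes of excitatory neurons were lower at 6W. Pou3f2, an upper-layer factor, changed by -1.13 and Cux1 by -0.62, while Cux2 (89.2 and 92.4 CPM) and Rorb (84.3 and 86.2), further upper-layer factors, were not called, and Rasgrf2 rose by 1.09. In deep layers Ntsr1, a receptor of corticothalamic neurons, fell from 34.8 ± 4.24 CPM at P5 to 4.65 ± 1.88 at 6W, Fezf2 and Bcl11b, which specify subcortical projection neurons, changed by -0.81 and -0.81, Tbr1 was not called, and Pcp4, a calmodulin-binding peptide, rose from 60.0 ± 17.4 CPM at P5 to 255 ± 29.4 at 6W, as did Crym, a thyroid hormone-binding protein, by 0.63. Fam84b changed by -2.07, and Neurod6, a transcription factor of pyramidal neurons, by -1.81. Of the 10 upper-layer genes 5 fell and 1 rose, and of the 12 deep-layer genes 6 fell and 2 rose. Cajal-Retzius genes fell: Trp73, at 3.01, 3.34, 3.62 and 4.28 CPM at P5 and 0.228, 0.197, 0.177 and 0.364 CPM at 6W, changed by -3.86, and Reln, reelin, which interneurons also make, by -1.51. Lhx1 had 24, 24, 14 and 41 counts at P5 and 0, 3, 0 and 1 at 6W. The subplate genes were mixed, with Nxph4 lower (-1.19), Cplx3 (1.14) and Nr4a2 (1.38) higher and Ccn2 not called (12.5 and 12.9 CPM). The Nr4a2 call was lost without P5 replicate 3 or 4 or 6W replicate 3 (edgeR adjusted p from 0.0564 to 0.0615). Of the 12 subplate and Cajal-Retzius genes 7 fell, and 4 without the P5 libraries high in olfactory bulb genes.

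Of 15 GABAergic interneuron genes 8 fell, 3 rose and 4 were not called, with 10 lower and 2 higher when libraries were scaled by size alone. The transcription factors Dlx1 (-1.74), Dlx2 (-1.95), Sp8 (-1.87, also an olfactory bulb gene, at 12.7, 15.5, 3.32 and 15.3 CPM at P5 and not called without P5 replicates 2 and 4, edgeR adjusted p = 0.134) and Lhx6 (-1.55) fell, while Gad1 and Gad2, the enzymes that make GABA, rose by 1.42 and 1.55, and Slc32a1, the vesicular GABA carrier, was not called (37 and 45.4 CPM). The summed level of this list was lowest in P5 replicate 3, at 807 CPM, and highest among the P5 libraries in replicate 1, at 1227, the library highest in striatal genes. Striatal neurons also express Gad1 and Gad2, and the part of striatal tissue was not tested. Pvalb, parvalbumin, the calcium buffer of fast-spiking cells, was at 0.271, 0.261, 0.187 and 0.0301 CPM at P5 and 22.7, 31.1, 24.3 and 21.1 CPM at 6W. It was near the floor at P5, at 9, 9, 5 and 1 counts, and between 580 and 791 counts at 6W. Lamp5, a marker of neurogliaform cells that pyramidal neurons share, was at 8.99, 4.38, 4.74 and 3.4 CPM at P5 and 198, 189, 189 and 186 CPM at 6W, a log2 change of 5.14 (SE 0.28). The peptide genes Vip, Cck, Npy and Sst rose by 3.09, 2.31, 1.02 and 0.73, and Calb1, calbindin, by 2.57. Of 15 subtype genes 12 rose and none fell. Tac1 rose by 2.31, and its 6W values of 61.3, 203, 46.4 and 164 CPM were highest in the 2 libraries high in striatal genes, against 58.3, 14.9, 11.4 and 10.8 at P5. Penk, proenkephalin, a striatal list gene that rose by 2.93, was at 59.5, 189.9, 67.1 and 140.3 CPM at 6W and 44.5, 6.18, 3.7 and 5.45 at P5, again highest in those libraries. Without the 3 libraries high in striatal genes both remained called, with log2 changes of 2.12 for Tac1 and 3.62 for Penk. Without P5 replicates 2 and 4 neither was called (edgeR adjusted p = 0.0876 for Tac1 and 0.0517 for Penk).

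Synaptic vesicle genes rose in 25 of 30 cases, with a median log2 change of 1.05 and a summed level of 7621 to 9311 CPM at P5 and 19051 to 20276 at 6W. Snap25, a membrane SNARE of fusion, was at 443, 522, 570.3 and 477 CPM at P5 and 3686, 2860, 2760 and 2730 CPM at 6W. Each 6W library exceeded each P5 library, and the log2 change was 2.58 (SE 0.14). Syt2, a fast calcium sensor, went from 1.56 ± 0.645 CPM at P5 to 26.5 ± 4.88 at 6W, and Syt1, the main calcium sensor of forebrain neurons, from 873 ± 95.9 CPM at P5 to 2369 ± 190.1 at 6W. Vamp1 rose by 3.35, Sv2b by 2.23, Bsn, the active zone scaffold bassoon, by 1.71 and Syp, synaptophysin, by 1.31. Syn3, a synapsin of young neurons, changed by -1.27, while Syn1 and Syn2 rose by 1.05 and 1.36. On the receiving side 16 of 24 postsynaptic density genes rose and Homer3 fell (-1.19), while 3 fell with library size alone. Dlg1, SAP97, rose by 2.23, Dlg4, PSD-95, by 0.49 (not called with library size alone), and Dlgap2 by 1.99. The other kinase subunit, Camk2b, was at 418, 442, 487 and 414 CPM at P5 and 333, 426, 419 and 438 CPM at 6W and was not called, with ages that overlapped.

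Glutamate receptor genes moved in both directions, 13 of 27 up and 8 down. Among NMDA receptor subunits, Grin2a was at 41.2, 49.9, 70.5 and 47.3 CPM at P5 and 405, 353, 435 and 456 CPM at 6W, a log2 change of 2.98 (SE 0.15), while Grin2b was at 1116, 1289, 1532 and 1165 CPM at P5 and 1245, 1250, 1512 and 1477 CPM at 6W and was not called. The Grin2a values did not overlap between the ages and the Grin2b values did, and per exon length Grin2b was the higher of the pair at 6W, at 55.2 against 23 RPKM (CPM per kilobase of exon). Grin2c rose from 0.608 ± 0.349 CPM at P5 to 19 ± 4.18 at 6W, and Grin2d and Grin3a, subunits known for early expression, changed by -1.61 and -1.01. Of the AMPA receptor subunits Gria3 rose most (1.81) and Gria1 and Gria2 by 0.72 and 0.72. Cacng3, an AMPA receptor auxiliary subunit, rose by 1.95 and Cnih2, another, changed by -0.66.

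For inhibition, Gabrd, the delta subunit of extrasynaptic GABA-A receptors, rose from 4.34 ± 1.29 CPM at P5 to 40.1 ± 2.6 at 6W, whereas Gabra5 changed by -1.24 and Glra2, a glycine receptor subunit of early life, by -1.84. Slc12a5, the chloride exporter KCC2, went from 124 ± 15.6 CPM at P5 to 413 ± 18.8 at 6W, and Slc12a2, the importer NKCC1, rose as well by a log2 change of 0.55. In all, 14 of 20 genes rose and 3 fell. Of 38 receptors for neuromodulators 18 rose and 4 fell. Htr2a, the cortical serotonin 2A receptor, went from 29.9 ± 7.2 CPM at P5 to 118 ± 11.4 at 6W, Htr1a rose by 1.95, Chrm3, a muscarinic receptor, by 1.98 and Adra1d, an adrenergic receptor, by 4.46. The delta opioid receptor gene Oprd1 rose by 2.33. Hcrtr2, an orexin receptor (-0.75), and Htr7 (-0.7) fell. Without the 3 libraries high in striatal genes Hcrtr2 was not called (-0.6, edgeR adjusted p = 0.064). The count of receptors that fell was 2 without the P5 libraries high in olfactory bulb genes, and 1 without those high in striatal genes. Drd1 and Drd2, dopamine receptors abundant in striatum, were not called and were at 10.2, 49.6, 18.9 and 41.6 CPM and 1.14, 30.5, 8.76 and 20.4 CPM at 6W, highest in replicates 2 and 4.

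In the list of voltage-gated and inward-rectifier potassium channels 31 of 34 genes rose, 1 fell and 2 were not called, with a median log2 change of 1.3. Over all 69 tested genes with a Kcn symbol 45 rose, 9 fell and 15 were not called, with a median of 0.8. Kcna1 and Kcna2, which form axonal delayed rectifiers, rose by 3.04 and 2.48, their beta subunit Kcnab2 by 2.78, and Kcnc2 and Kcnc1, the Kv3 channels of fast firing, by 2.44 and 1.6. Kcnk10, the two-pore channel TREK-2, was the listed gene that fell, from 40.5 ± 4.03 CPM at P5 to 6.49 ± 1.46 at 6W. Scn4b, a sodium channel beta subunit tied to resurgent current, was at 1.41, 0.29, 0.336 and 0.181 CPM at P5 and 27.9, 80.9, 42.2 and 69.1 CPM at 6W, a log2 change of 6.6, and its highest values at both ages were in the libraries high in striatal genes, whose part in the change was not tested. Scn1a rose by 1.94 and Scn8a by 1.68, and Scn3a and Scn3b, the sodium channel subunits of early life, changed by -1.11 and -1.02. Cacnb4 led the calcium channel genes with a rise of 2.2, followed by Cacnb2 (1.3), and 7 of 15 rose. The T-type channels Cacna1h and Cacna1g changed by -0.66 and -0.4, and the Cacna1g call was lost without any one of the P5 libraries or 6W replicate 1 or 2 (edgeR adjusted p from 0.0538 to 0.158). A block on replicate number also lost the Cacna1g call (edgeR adjusted p = 0.0522), as did scaling without mitochondrially encoded genes and another filter on low counts.

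The exchange of early for later family members was examined in 32 pairs. In 11 pairs the early gene fell and the late gene rose, in 7 both rose, in 9 both fell, and in 5 a member was not called. Hapln1 counts as risen in these numbers, and its call was lost with library size alone (edgeR adjusted p = 0.213) and without P5 replicate 1, 2 or 3 or 6W replicate 1, 2 or 4 (from 0.0558 to 0.169). A block on replicate number also lost the Hapln1 call (edgeR adjusted p = 0.0525). The ratio of late to early gene was higher in all 4 libraries at 6W than in any at P5 for 21 pairs. The order of the pair per exon length turned in 5 pairs. Scn3a stood above Scn1a at P5 (8.34 and 3.11 RPKM) and below it at 6W (3.86 and 11.9). Tubb3 stood above Tubb4a at P5 (584 and 129 RPKM) and below it at 6W (88.9 and 192), and Tubb2b and Tubb2a turned in the same way although both fell. Hapln1 and Hapln4, the link proteins that tie hyaluronan to matrix proteoglycans, went from 5.13 and 0.324 RPKM to 7.2 and 26, and Ldha and Ldhb, the lactate dehydrogenase subunits, from 68.2 and 44.9 to 63.2 and 170.1. Tuba1a, the main alpha tubulin of young neurons, fell (-2.85) and Tuba4a rose (2.54), and the elongation factor Eef1a1 fell (-1.34) while its adult neuronal form Eef1a2 rose (1.36). Tubulins and Eef1a1 have close copies or pseudogenes, so their counts may hold or lose shared reads. Slc17a6 fell (-1.35) as Slc17a7, the cortical vesicular glutamate carrier, rose (2.39). The chromatin remodeller pairs of the BAF complex, which exchange when neurons leave the cell cycle, gave no such turn: Actl6a and Actl6b changed by -0.54 and -0.65, and Dpf1 fell more (-1.23) than Phf10 (-0.33).

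**Figure D4:**
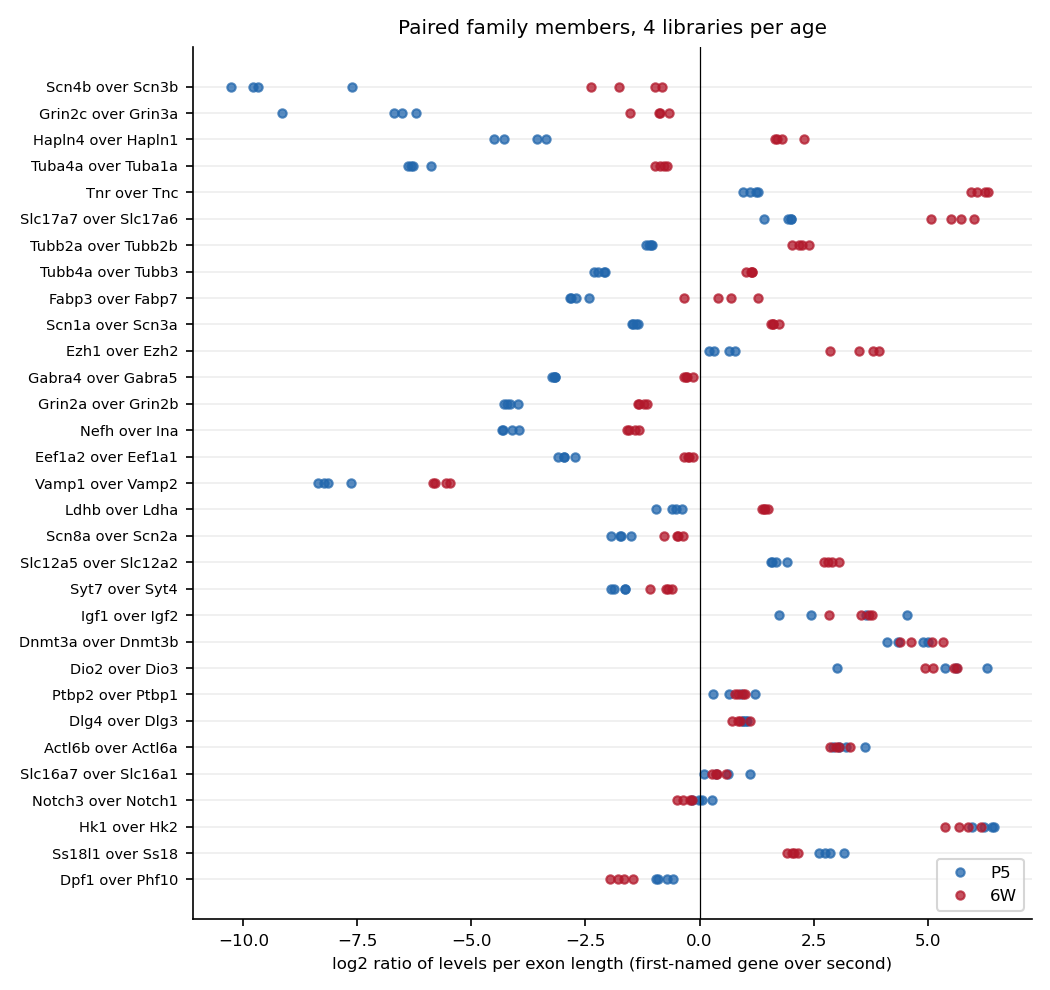
Log2 ratio of the levels per exon length of paired family members (horizontal axis) for 31 of the 32 pairs in each P5 library (blue) and 6W library (red). Values right of 0 mean that the first-named gene is the higher of the pair; Scn1a over Scn3a moves from between -1.48 and -1.36 at P5 to between 1.57 and 1.73 at 6W, while Actl6b over Actl6a overlaps.

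Axon guidance genes fell more often than they rose, 10 of 22 ligands against 5 and 13 of 24 receptors against 4. Without P5 replicate 4 the ligands that rose were 3. Draxin, a repellent of growing axons, was at 28.6, 32.5, 25.7 and 29.6 CPM at P5 and 1.07, 0.394, 0.887 and 0.545 CPM at 6W. All 6W values were below all P5 values, with a log2 change of -5.32. Efna2, an ephrin, changed by -2.08, the receptors Ephb2, Plxna3 and Robo1 by -2.66, -2.32 and -1.7, and Dcc, the netrin receptor, by -0.95. Slit3 (2.29), Slit2 (0.99), Sema3e (1.5) and the receptor Robo3 (2.1) rose. In the adhesion list Chl1 (-2.03) and L1cam (-1.75), which act in axon growth, fell, and Nrxn3, a presynaptic neurexin, and Lrrtm3, a synaptic organizer, rose by 1.03 and 1.57. Among matrix genes 8 of 15 fell and 5 rose, with Has3, a hyaluronan synthase, going from 28.3 ± 5.42 CPM at P5 to 1.54 ± 0.503 at 6W, Hapln2, a link protein of nodes, changing by 4.25 and Ncan, neurocan, changing by -1.25. Hapln4, which is found in perineuronal nets, was at 1.35, 1.57, 1.08 and 1.08 CPM at P5 and 104, 99.3, 106 and 98.1 CPM at 6W, while Acan, aggrecan, the main net proteoglycan, was at 1.71, 1.39, 0.822 and 1.24 CPM at P5 and 1.68, 1.89, 1.99 and 1.35 CPM at 6W and was not called. With scaling by library size alone 3 matrix genes rose. Of 22 tubulin, neurofilament and microtubule-associated genes 11 fell and 7 rose, and their sum was 19377 to 26007 CPM at P5 and 9083 to 9630 at 6W. The neurofilament genes Nefh, Nefm and Nefl rose by 2.56, 1.52 and 1.27, Ina, alpha-internexin, was not called (248 and 225 CPM) except with scaling by library size alone, where it was lower at 6W, and there were rises of Tuba8, a late alpha tubulin (3.3), and Map1a (1.82), while Map1b (-1.44) and Mapt, tau (-2.49), fell.

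Energy and lipid metabolism changed by pathway. Glycolytic genes rose in 15 of 17 cases with a median log2 change of 1.03: Aldoa, aldolase A, went from 328 ± 9.91 CPM at P5 to 1253 ± 114 at 6W, Eno2, neuronal enolase, rose by 2.13 and Ldhb by 1.92, while Pfkp fell (-0.32, not called without the 3 libraries high in striatal genes, edgeR adjusted p = 0.0744) and Ldha was not called. Of 15 genes of ketone body and fatty acid use 6 fell and 5 rose (median -0.11), read against 30.3% and 30.6% over all genes, or 8 and 2 when libraries were scaled by size alone. Bdh1, which starts the oxidation of the ketone body hydroxybutyrate, was at 142, 151, 165 and 143 CPM at P5 and 36.6, 39, 39.2 and 36.4 CPM at 6W, with no overlap and a log2 change of -1.99, and Acat1 (-1.41), Oxct1 (-0.79) and the monocarboxylate carriers Slc16a1 (-0.86) and Slc16a7 (-1.06) fell as well. The fatty acid genes Hadhb (1.02) and Cpt1c (1.0) rose. Of 24 cholesterol genes 21 fell, with a median of -1.34. Hmgcs1, an early enzyme of synthesis, was at 497, 678, 836 and 699 CPM at P5 and 176, 178, 157 and 169 CPM at 6W, with no overlap of the ages. It changed by -2.0, Sqle, squalene epoxidase, by -1.87, Fdps by -2.42 and Mvd by -2.17. Cyp46a1, which clears cholesterol from neurons, rose by 2.05 and Apoe, the lipid carrier of astrocytes, by 1.43. In the tricarboxylic acid cycle 12 of 22 genes rose, among them Sdha (1.37) and Ogdhl (1.67), and citrate synthase, Cs, fell (-0.42), as did Dlst (-0.21), a call lost on leaving out any one of the libraries except P5 replicate 4 and 6W replicate 3 (edgeR adjusted p from 0.0658 to 0.169). A block on replicate number also lost the Dlst call (edgeR adjusted p = 0.0532), as did scaling without mitochondrially encoded genes and other filters on low counts. Of 36 nuclear genes of respiratory complex I, 20 rose by small amounts and none fell, a count that became 7 and 6 when libraries were scaled by size alone.

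Ribosomal, splicing, chromatin and growth genes were read by list and family. Of 80 cytosolic ribosomal protein genes 71 fell and none rose, with a median log2 change of -0.73. These genes have many processed pseudogenes, so their counts may hold or lose shared reads. Splicing factors followed: 16 of 20 hnRNP genes, 8 of 11 SR genes and 9 of 11 snRNP genes fell. Of 24 neural splicing regulators 15 fell and 7 rose. Elavl3 (-1.21), Nova2 (-1.07), Ptbp1 (-1.0) and Msi1 (-1.25) fell, while Mbnl2 was at 67, 69, 67 and 74.2 CPM at P5 and 489.9, 458, 416 and 467 CPM at 6W. All 6W libraries lay above all P5 libraries, a log2 change of 2.72 (SE 0.12), and Mbnl1 and Rbfox3, the source of the NeuN antigen, rose by 1.34 and 0.85. C2H2 zinc finger genes fell in 151 of 359 cases and rose in 45, or 202 and 22 when libraries were scaled by size alone. Chromatin regulators included Ezh2, the Polycomb methyltransferase of dividing cells, which fell from 16.8 ± 2.3 CPM at P5 to 3.35 ± 0.911 at 6W, Uhrf1 (-3.17), Dnmt1, maintenance DNA methyltransferase (-1.03), Dnmt3a (-1.58) and Tet1 (-1.94), and the Polycomb readers Cbx7 (2.93) and Cbx6 (1.53) rose. Of 11 tested genes of the fetal RNA-binding and growth list 8 fell and 1, Trim71, rose (1.66). Hmga2, a chromatin protein of fetal progenitors, had 16, 15, 7 and 13 counts at P5 and 0 in all 4 libraries at 6W, so it was at least 3.5-fold lower against a mean floor of 3 counts per library. Igf2bp3, an RNA-binding protein of fetal tissue, had 143, 114, 98 and 136 counts at P5 and 2, 1, 7 and 0 at 6W. Mycn (-2.69) and Mex3a (-4.55) fell, and Myc was at 49.2, 60.0, 72.9 and 69.1 CPM at P5 and 3.47, 3.58, 4.44 and 3.93 CPM at 6W. The list's median was -2.69, or -2.07 with Hmga2 at its bound. The imprinted noncoding RNA H19 had 155, 118, 32 and 239 counts at P5 and 4, 0, 4 and 2 at 6W, and 8 of 16 imprinted genes fell, 2 rose and 6 were not called, with a list sum of 3066 to 3573 CPM at P5 and 3103 to 3444 at 6W. Those that fell included Magel2 (-2.73) and Nnat (-3.06), and Peg3 (0.86) and Snrpn (0.72) rose.

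Signalling genes gave smaller groups of change. Notch pathway genes fell in 12 of 18 cases, led by the ligands Dll1 (-1.23) and Dll4 (-1.23), and Hey1 rose (1.11). Without the 3 libraries high in striatal genes 7 fell. Of the neurotrophins Bdnf was at 3.49, 5.86, 5.3 and 4.64 CPM at P5 and 26.7, 21.9, 27.7 and 35.5 CPM at 6W and rose by 2.54, with no overlap of the ages, and Ntf3, neurotrophin-3, fell from 17.3 ± 6.89 CPM at P5 to 2.3 ± 0.905 at 6W. Ngfr, the p75 receptor, fell (-2.16) and Sort1, sortilin, rose (1.51). Ntrk2, the BDNF receptor TrkB, rose by 0.84. Klf9, a target of thyroid hormone and glucocorticoids, rose by 1.89, Nr3c1, the glucocorticoid receptor, by 1.57, Nr3c2, the mineralocorticoid receptor, by 1.57 and Thrb by 1.26, while Thra (-0.61) and Fkbp5 (-0.73) fell. The apoptosis genes Bax (-1.3), Apaf1 (-1.68) and Bbc3 (-2.44) fell and Bcl2l2, a survival factor, rose (1.65), as did Hrk (1.11). In this list 10 of 20 fell and 4 rose. Immediate early genes rose in 12 of 16 cases, with Arc at 3.67, 3.19, 1.98 and 5.24 CPM at P5 and 4.68, 23.7, 51.2 and 54 CPM at 6W. The value of 6W replicate 1 lay within the P5 range. Fosb changed by 2.96. Fos was at 3.73, 11.6, 26.4 and 19.8 CPM at 6W, and its call was lost without P5 replicate 1 or 3 or 6W replicate 3 or 4 (edgeR adjusted p from 0.0573 to 0.0981). Circadian output genes rose, Dbp by 2.93 and Hlf by 3.19, and Cry1 fell (-1.14). Of the 16 circadian genes 12 rose. The hour of tissue collection is not given in the sources used here.

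The hippocampus of WT mice was used to see where the prefrontal change differed. Of 18849 genes tested for the difference of the 2 changes, 2165 (11.5%) passed by edgeR's quasi-likelihood test, 1206 (6.4%) with a more positive change in prefrontal cortex and 959 (5.09%) with a more negative one. With library size alone these were 1459 and 568. The 30 genes with the largest prefrontal changes at a mean log2 CPM of 5 or more, chosen for not overlapping, also changed without overlap and in the same direction in hippocampus, and 15 of the 30 differed in size. Of the 11015 called genes measured in both fits, 7527 did so, 145 went without overlap the other way, and 3343 overlapped between the hippocampal ages. The share of all tested genes without overlap in hippocampus is not given here, so these counts have no general rate to be read against. Car10 was at 29.8, 21.5, 20.5 and 22.6 CPM at P5 and 302, 231, 244 and 239 at 6W in prefrontal cortex, and 35.6, 35.3, 30.7 and 33.1 CPM at P5 and 37.1, 69.1, 48.2 and 63.8 at 6W in hippocampus. The prefrontal values were lower at P5 and higher at 6W without overlap, and the difference of the changes was 2.73 (SE 0.24, edgeR adjusted p = 2.9e-11). Lamp5 (2.54), Dusp14, a phosphatase of MAP kinases (2.64), Ddit4l, a regulator of mTOR signalling (2.63), Htr2c, the serotonin 2C receptor (3.01), and Nts, neurotensin (3.15), also moved more positively in prefrontal cortex. For Nts the hippocampal mean fell from 145 to 16.8 CPM, while the prefrontal values of 2.57 to 27 CPM overlapped between the ages and were highest in libraries with high striatal genes. Without those 3 libraries the Nts difference was not called (edgeR adjusted p = 0.291).

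In the other direction Gpr161, a receptor of the primary cilium, was at 37.7, 38.6, 47.3 and 38 CPM at P5 and 4.51, 5.17, 4.2 and 5.18 at 6W in prefrontal cortex, and 43, 43.4, 46.4 and 46.9 CPM at P5 and 25.1, 41.1, 46.4 and 46.2 at 6W in hippocampus. It fell in prefrontal cortex, while the hippocampal ages overlapped, a difference of -2.9 (SE 0.22). Tanc1, a synaptic scaffold, was higher at 6W in both tissues, with the larger change in hippocampus (-2.13), and Adcy1, an adenylyl cyclase (-2.12), Fam84b (-2.07), Ccbe1 (-2.0) and Prr18 (-1.9) had more negative prefrontal changes. By list, 7 of 20 myelin genes differed, all rising less in prefrontal cortex, with Mbp at 735 CPM at 6W against 2041 in hippocampus. Upper-layer genes had 5 of 10 with more negative changes and none with more positive ones. Astrocyte genes had 7 of 20 with more positive changes and none with more negative ones, and neuromodulator receptors 12 of 38 against 3. The change of Ntf3 was more negative in prefrontal cortex (-3.23), with hippocampal means of 12.6 and 15.9 CPM.

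**Figure D5:**
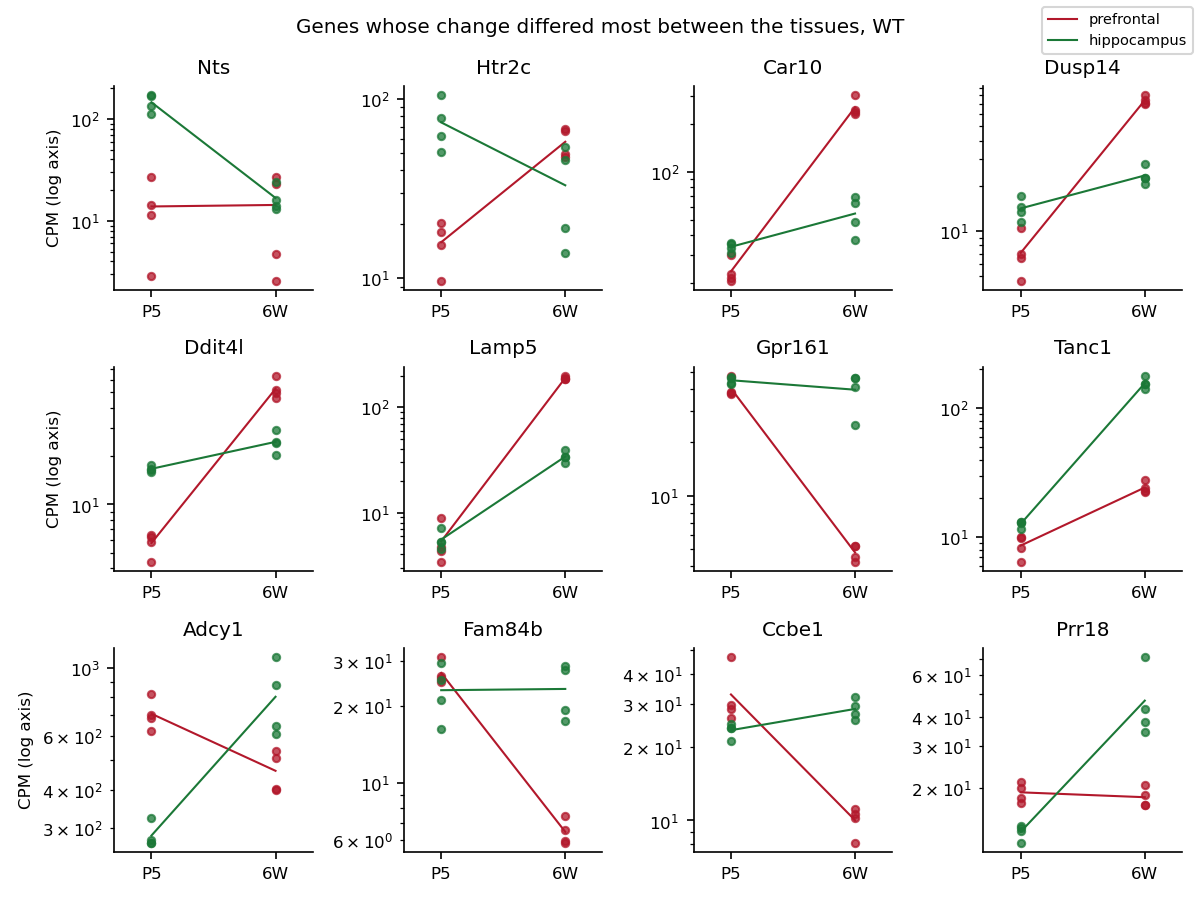
CPM per library at P5 and 6W in WT prefrontal cortex (red) and WT hippocampus (green), on log axes, for the 6 genes with the largest positive and the 6 with the largest negative difference of the changes among called genes at a mean log2 CPM of 4 or more; lines join the means. Lamp5 and Gpr161 overlap between the tissues at P5 and are apart at 6W, Lamp5 with prefrontal cortex higher and Gpr161 with it lower.

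The same age step was compared with that of the KO prefrontal cortex, which was sampled at the same 2 ages. Mpg, the gene the KO mice lack, was at 1.47, 1.27, 1.12 and 1.36 CPM at P5 and 2.51, 1.51, 1.61 and 1.8 CPM at 6W in KO, against 8.81, 7.52, 7.13 and 7.71 and 5.6, 5.71, 5.68 and 4.76 in WT. All KO libraries were below all WT libraries of either age, and the KO values were not at 0. The P5 to 6W change differed in 2 of 18144 genes (0.011%) by edgeR's quasi-likelihood test, with 563 genes at an unadjusted p under 0.05. Pttg1, securin, an inhibitor of the protease that separates sister chromatids, was at 9.59, 8.91, 9.86 and 10.1 CPM at P5 and 27.5, 24, 25.4 and 22.4 at 6W in WT, and at 5.22, 3.47, 3.58 and 3.58 and 0.675, 0.657, 0.496 and 0.395 CPM in KO. All WT libraries at 6W were above all at P5, and all KO libraries at 6W below all at P5, a difference of 4.2 on the log2 scale (SE 0.26). The 25 genes of the mitosis list, which does not hold Pttg1, fell in WT. Aldh2, mitochondrial aldehyde dehydrogenase, was at 3.04, 2.82, 2.58 and 3.62 CPM at P5 and 7.27, 6.81, 7.66 and 7.02 at 6W in WT, and at 23.2, 16.2, 16.1 and 16.2 and 21.1, 15.7, 19.4 and 23.4 CPM in KO. The WT ages did not overlap and the KO ages did, and the difference of the changes was 1.1 (SE 0.19, edgeR adjusted p = 0.036). The Aldh2 call was lost on leaving out any one of the 8 WT libraries except P5 replicate 4 (edgeR adjusted p from 0.0681 to 0.166), and with library size alone (0.211).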

How the data were processed

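Prefrontal cortex and hippocampus of male mice were sequenced as poly(A) RNA with a stranded kit and single-end reads, per the labels' protocols. The authors deposited 1 table of whole-number read counts per gene for 48 libraries, not normalized. Per the submitters' processing notes, bcl2fastq 2.20.0.422, STAR 2.4.0, HTSeq and GRCm38 were used. The annotation release, the strand setting and the treatment of reads with several matches are not given in the sources used here, so overlapping genes and near-identical copies are uncertain. Of the 353 genes named with values, 40 share exon sequence with a protein-coding gene on the opposite strand and 12 with one on the same strand in GENCODE M21.

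Of 54838 gene identifiers, 54809 were found in GENCODE M21 and 54723 received a symbol. Counts were fitted with edgeR 4.0.16 (R 4.3.3, limma 3.58.1; TMM scaling, filterByExpr, quasi-likelihood F-test, Benjamini-Hochberg adjustment over all genes tested). The age comparison and the WT against KO test used the 24 prefrontal libraries in 6 groups, and the tissue test used all 48 in 12 groups, whose CPM values differ slightly in scale. Levels per length are CPM per kilobase of annotated exon. Groups came from the labels. The members, gene lists, pairs and motifs were chosen with earlier results of these data known. Named with values were the 15 largest rises and 15 largest falls among called genes whose mean log2 CPM reached 5 and whose values did not overlap, leading members of each list with further members of explained role, the 6 largest tissue differences each way at a mean log2 CPM of 4 or more, and all genes that differed by genotype; some of these genes are not reported here. The test was run before use on simulated counts in which few genes changed, equally often in both directions. That run does not check the scaling where most genes differ, as in these data. Alternatives were other scalings, other filters on low counts, a block on replicate number, only the samples compared, each WT prefrontal library left out and DESeq2 1.42.0. Leaving out the libraries high in olfactory bulb or striatal genes was added after the data were seen. Depth was 26754791 to 31484242 counts in the 8 libraries, and floors of 3 counts cover counting error only.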

Additional observations from a re-analysis of the deposited data

Results flagged for a closer look

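Within an age, 60 of 821 sets of 4 values had 1 library far from the other 3 by Dixon's test (7.31%), and chance marks about 1 group in 20. The sets are not independent, since they share libraries. P5 replicate 1 was the highest of its age for Drd2 (22.3 CPM), Lig3 (43.6 CPM), Ntrk2 (444 CPM), Penk (44.5 CPM), S100b (5.77 CPM), Scn4b (1.41 CPM) and Slc32a1 (63.3 CPM). It was likewise the highest for Tac1 (58.3 CPM), striatal medium spiny neuron list sum (483 CPM), ependymal list sum (21 CPM) and imprinted growth network list sum (3573 CPM). P5 replicate 1 was the lowest of its age for Glra2 (102 CPM), Reln (178 CPM) and Tbr1 (284 CPM). P5 replicate 3 was the highest of its age for Ccbe1 (47.3 CPM), Gpr161 (47.7 CPM), Ncam1 (1118 CPM), Thrb (39.6 CPM) and postsynaptic density list sum (5036 CPM). P5 replicate 3 was the lowest of its age for Aurkb (2.17 CPM), Dll1 (4.18 CPM), Dlx1 (30.7 CPM), Pax6 (4.82 CPM) and Slit3 (3.62 CPM). P5 replicate 4 was the highest of its age for Cdh5 (43.1 CPM), Slc16a1 (77 CPM) and endothelial and blood-brain barrier list sum (554 CPM). P5 replicate 4 was the lowest of its age for Hapln2 (0.0904 CPM). 6W replicate 1 was the highest of its age for Car10 (303 CPM), Eomes (1.94 CPM), Nrep (55.1 CPM), Ntf3 (3.66 CPM), Snap25 (3686 CPM), Sostdc1 (0.838 CPM) and Sp8 (5.25 CPM). It was likewise the highest for Zfp365 (906 CPM), olfactory bulb list sum (58.8 CPM) and intrinsic apoptosis list sum (464 CPM). 6W replicate 1 was the lowest of its age for Aldoa (1084 CPM), Cbx6 (152 CPM), Cplx3 (5.22 CPM), Dcc (11.2 CPM), Gpr17 (27.8 CPM) and Tet1 (19.6 CPM). 6W replicate 2 was the highest of its age for Bcl11b (102 CPM), Trh (0.748 CPM), Tuba4a (638 CPM) and angiogenic tip cell list sum (69.2 CPM). 6W replicate 2 was the lowest of its age for Hlf (291 CPM). 6W replicate 3 was the highest of its age for Hba-a1 (70.5 CPM), Hbb-bs (377 CPM), Ncam1 (269.7 CPM), Ogdhl (74.6 CPM), Rasgrf2 (315 CPM), red blood cell list sum (533 CPM) and tubulin and neurofilament list sum (9630 CPM). 6W replicate 3 was the lowest of its age for Nefm (152 CPM). 6W replicate 4 was the highest of its age for Has3 (2.29 CPM) and Htr2a (135 CPM). 6W replicate 4 was the lowest of its age for Mpg (4.76 CPM).

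By edgeR's quasi-likelihood test of the difference itself, the P5 to 6W log2 change was more positive in prefrontal cortex than in hippocampus for Nts (3.15), Htr2c (3.01), Car10 (2.73), Dusp14 (2.64), Ddit4l (2.63) and Lamp5 (2.54). It was more negative for Gpr161 (-2.9), Tanc1 (-2.13), Adcy1 (-2.12), Fam84b (-2.07), Ccbe1 (-2.0) and Prr18 (-1.9). Between WT and KO prefrontal cortex the change differed for Pttg1 (4.2) and Aldh2 (1.1), more positive in WT.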

How the results depend on the processing

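Scalings other than library size alone, filters, the smaller fit and DESeq2 gave between 10592 and 11145 called genes for the age comparison, against 11034. Leaving out 1 library gave 10449 to 10737, with 5224 to 5416 higher and 5176 to 5321 lower at 6W. Library size alone gave 4152 higher and 7090 lower, and moved the tissue test to 1459 and 568. Leaving out 1 WT prefrontal library in the tissue test gave 1777 to 2343 called genes against 2165, and no hippocampal library was left out. WT hippocampal 6W replicate 1 had 31.6% mitochondrially encoded counts, against 15.7 to 18.8% in replicates 2 to 4, and its part in the tissue test was not tested. Of the 2 genes that differed by genotype, 1 remained called with library size alone, with only the samples compared, without P5 replicates 2 and 4 and without the 3 libraries high in striatal genes. Without 1 library the number was 1 to 2, and with no filter on low counts it was 3. A replicate block in the model gave 11006 (5562 higher, 5444 lower), 2326 (1296 and 1030) and 2 (2 and 0) called genes for the age, tissue and genotype tests, and with the number shared between tissues as a block the tissue count was 2129. Deviations of same-numbered P5 and 6W libraries had correlations of -0.34 to 0.041 over 9746 genes, so they gave no sign of pairing by number. P5 replicate 1 and 6W replicate 2 reached 0.31. A batch shared by libraries of the same number was not tested. Of 330 named genes that were called, 21 lost the call in at least 1 of the alternatives, 6 others gained one, and none reversed. Of 112 list counts 29 moved by over 1.5 times in at least 1 alternative. The cause of these moves was not tested. Genes with few counts at 1 age, such as Hmga2, are limited by depth.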

Other observations

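Further gene families were counted by symbol. Of 19 vacuolar ATPase subunits, the proton pump of vesicles and lysosomes, 15 rose and 1 fell (median log2 change 0.50), or 8 and 2 with library size alone. Proteasome subunits fell in 16 of 38 cases and rose in 4 (median -0.21), or 29 and 3 with library size alone, and kinesin genes, motors of axonal transport and of the spindle, fell in 20 of 36 and rose in 10, or 21 and 6 with library size alone. Collagen genes fell in 24 of 45 cases and rose in 5. Forkhead transcription factors fell in 12 of 26 and rose in 2, and SOX factors fell in 7 of 17 and rose in 1, or 14 and 1 and 10 and 0 with library size alone. Rab GTPases, which steer vesicle traffic, rose in 21 of 63, a share near the 30.6% over all genes, and fell in 14, and library size alone turned this to 16 and 24. Mitochondrial ribosomal protein genes were balanced, at 16 higher and 15 lower of 76, and library size alone turned this to 3 and 32. Of 10 tested mitochondrially encoded genes 8 rose. In adults of 4 to 6 months, all 30 of the genes with the largest changes at high level had a mean CPM nearer to that at 6W than to that at P5. These genes were chosen for the size of that change, which favours such an outcome, and the share over all genes is not given here.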
